A study of Mus musculus with 4 samples.

Results

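Voltage-gated and potassium channel subunits were read in 4 mouse cerebellar tumors. They were taken as the genes whose symbol starts with Kcn and a further letter, with Scn and a digit, or with Cacn, on probe sets that carry exactly 1 gene symbol in the platform annotation. Kcnj13 and Kcne2 were left out by the same rule. It found 80 genes on 147 probe sets, out of 13320 genes on 24679 probe sets with a single symbol. Of the 80 genes, 78 encode proteins. The other 2, Kcnq1ot1 and Kcnmb4os2, are noncoding RNAs named after a neighbouring channel gene, and they are described apart from the subunits. Total RNA of each tumor was hybridised to 1 Affymetrix mouse expression array. The tumors carry the sample titles Chd7-het 1, 2, 4 and 5 and are called tumors 1, 2, 4 and 5 here. The labels give each the tissue cerebellar tumor and a mixed CD1xC57BL/6 background. The Chd7-het genotype is shared by all 4. Neither normal cerebellum nor tumors of other genotypes were analysed here, and so the members are compared among the tumors only. The labels give no age, sex or treatment; 4 arrays limit how precise any value can be.

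Voltage-gated channels open when the membrane depolarises. Sodium channels carry the upstroke of the action potential, calcium channels couple activity to transmitter release and gene expression, and potassium channels bring the membrane back to rest. The pore is built by large alpha subunits, while smaller auxiliary subunits set the trafficking and gating of the complex. In the cerebellum, Purkinje cells and mature granule cells carry rich sets of such channels, and glial cells rely on inwardly rectifying potassium channels to take up potassium.

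The deposited values are log2 signals. A signal counted as measured when it lay above a floor of 5.12 on the log2 scale, or 34.8 linear, which is the median over the arrays of each array's 40th percentile. Between 59.1% and 61.3% of all probe sets lay above it on each array, the most in tumor 1. The median signal was also highest in tumor 1, at 5.96 beside 5.91, 5.83 and 5.84 in tumors 2, 4 and 5. Each gene was read on its probe set with the highest mean. All 8 markers of granule cell progenitors, among them Atoh1, lay above the floor in every tumor. On this scale 28 of the 80 members lay above the floor in all 4 tumors, 22 in 1 to 3 tumors and 30 in none. The share above the floor in every tumor was 35.0% for the members and 69.2% over all genes.

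A gene entered the tests if its mean over the tumors reached 5.87 on the log2 scale, the median over all probe sets, which 26 of the 80 members and 8498 genes in all did. The limma fit over all 8498 genes compared every tumor with the 3 remaining ones. Genes were called when the p adjusted by Benjamini-Hochberg was under 0.05 and the change reached 2-fold. A lone tumor has no spread of its own, and it is taken to vary like the remaining 3. The test asks whether that tumor lies outside their spread, and p-values measure the spread between these tumors only.

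In tumor 1, 6 channel genes rose above the level of tumors 2, 4 and 5: Kcnc1, Kcnj3, Kcnk1, Scn2b, Cacna2d3 and Cacnb4. They belong to 6 different subunit families, covering potassium, sodium and calcium channels. These are 6 of the 26 members tested, and 0 members passed lower, where 1.05% of all genes tested passed higher and 0.247% lower. Over the 26 members the median difference of tumor 1 was 0.26 on the log2 scale, with 20 higher and 6 lower, beside a median of -0.036 over all genes tested. Kcnc1, Cacna2d3 and Cacnb4, as well as Kcnn2, reached the filter only with tumor 1 included, so their entry to the test already depended on that tumor. No member passed in tumors 2, 4 or 5, where 0.0% of all genes passed in each. At an unadjusted p under 0.05 in limma there were 10 members in tumor 1, 0 in tumor 2, 1 in tumor 4 and 1 in tumor 5. Over all genes tested the shares at that p were 11.2%, 5.84%, 0.553% and 3.60%.

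**Figure D1:**
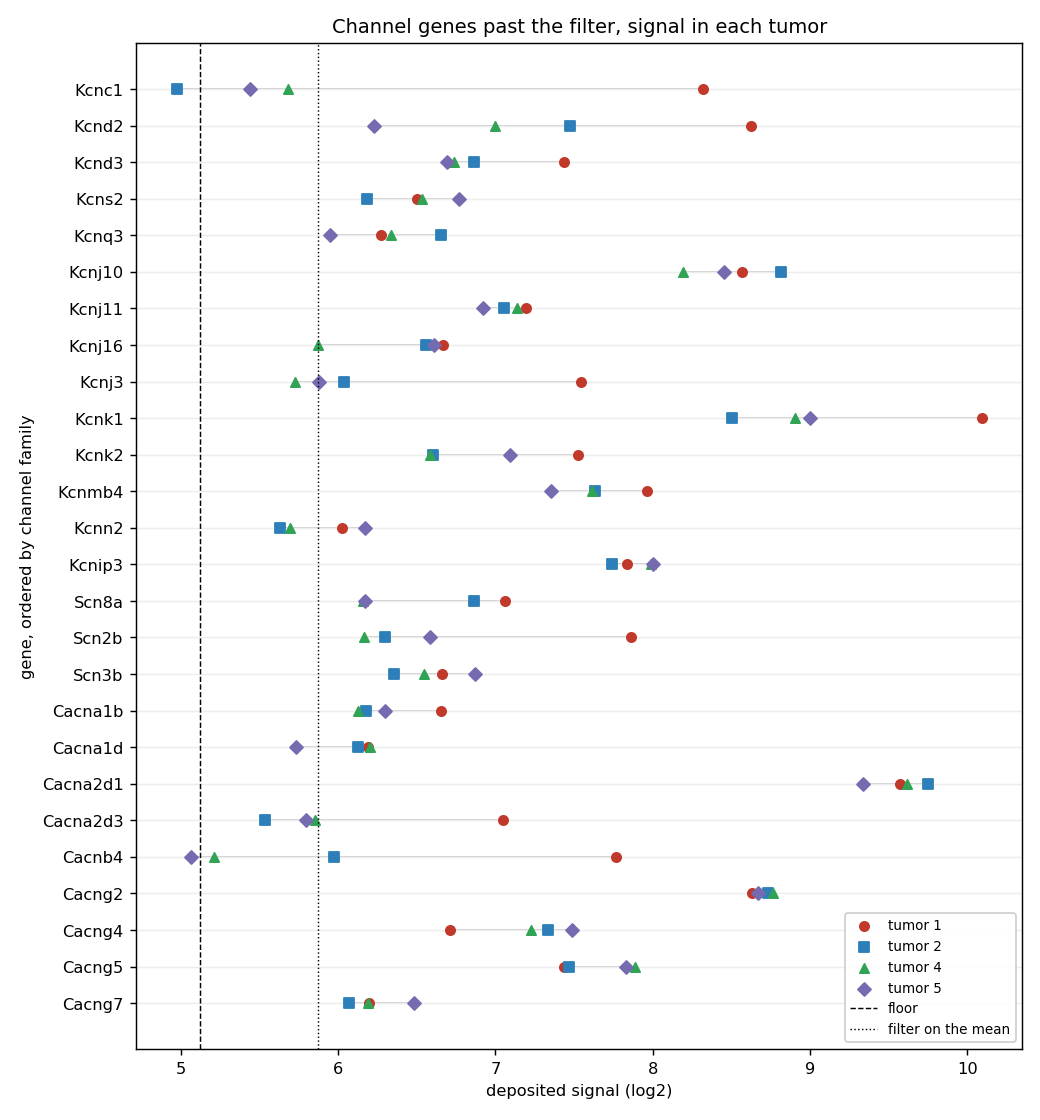
Deposited log2 signal (x axis) of the 26 channel genes past the filter (y axis), with 1 point per tumor and a grey line from the lowest to the highest tumor. Tumor 1 stands to the right of the other 3 in 14 of the 26 genes, among them Kcnc1 at 8.32 and Cacnb4 at 7.76.

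Start regions are shown for 4 of the 6 genes that rose in tumor 1. All 6 were picked for that rise, so their common change is no separate result. The 4 span the lowest and the highest share of G and C among the windows of the 6 genes. The 250 bases before the annotated start were taken from the RefSeq promoter table of GRCm38.p6, 5′ to 3′ on the gene's strand. They lie at chr7:46396218-46396467 on the plus strand for Kcnc1, chr14:29721865-29722114 on the minus strand for Cacna2d3, chr2:55435720-55435969 on the plus strand for Kcnj3 and chr9:45117626-45117875 on the plus strand for Scn2b. Capitals mark the GC box GGGCGG, searched on both strands.
Kcnc1: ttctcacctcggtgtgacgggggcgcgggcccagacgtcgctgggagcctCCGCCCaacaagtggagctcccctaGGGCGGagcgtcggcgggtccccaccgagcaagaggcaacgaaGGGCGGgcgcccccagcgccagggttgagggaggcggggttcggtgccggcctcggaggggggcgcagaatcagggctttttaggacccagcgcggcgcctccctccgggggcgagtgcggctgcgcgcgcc
Cacna2d3: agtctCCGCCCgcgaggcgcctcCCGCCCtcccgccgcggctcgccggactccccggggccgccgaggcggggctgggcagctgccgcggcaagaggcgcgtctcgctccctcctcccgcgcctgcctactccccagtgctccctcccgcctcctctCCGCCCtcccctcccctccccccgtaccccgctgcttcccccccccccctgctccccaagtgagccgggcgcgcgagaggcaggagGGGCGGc
Kcnj3: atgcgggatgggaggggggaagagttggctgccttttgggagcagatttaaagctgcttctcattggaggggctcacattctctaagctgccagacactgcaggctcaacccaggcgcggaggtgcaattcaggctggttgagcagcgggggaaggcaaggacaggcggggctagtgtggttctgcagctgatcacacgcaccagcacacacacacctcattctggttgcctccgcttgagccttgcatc
Scn2b: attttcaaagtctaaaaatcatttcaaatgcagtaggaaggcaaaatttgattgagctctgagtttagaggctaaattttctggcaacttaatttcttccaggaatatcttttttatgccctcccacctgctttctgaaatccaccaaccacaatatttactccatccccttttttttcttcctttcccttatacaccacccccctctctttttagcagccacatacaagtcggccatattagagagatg

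The 4 windows differ widely. That of Cacna2d3 holds 80.0% G and C, 30 CpG dinucleotides and 4 GC boxes, and that of Kcnc1 74.4%, 30 CpG and 3 boxes. The window of Kcnj3 holds 58.4% G and C with 7 CpG, and that of Scn2b 38.4% with 1 CpG, both with 0 boxes. The window of Kcnk1, not printed, holds 44.4% G and C, 0 CpG and 0 boxes. Cacnb4 has 3 annotated starts, whose windows hold 48.8%, 71.2% and 79.6% G and C with 0, 0 and 6 boxes. The GC box occurs in 32.7% of all 32851 windows of this length in the table, and in 39.6% of the 96 windows of the 64 members that matched it by symbol. Of the 8 windows of the 6 genes that rose in tumor 1, 3 hold the box. A match is a description of these letters and shows no binding.

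Among the pore subunits of the Shaker, Shaw and Shal type, which carry delayed rectifier and A-type potassium currents, most genes lay below the floor. Of 12 such genes, 2 lay above the floor in every tumor, 3 in some and 7 in none (Kcna3, Kcna4, Kcna5, Kcna6, Kcnc2, Kcnc4 and Kcnd1). All 4 that ranged over 2-fold or more were highest in tumor 1. Kcnc1, whose product allows fast repolarisation in fast-spiking neurons, had log2 signals of 8.32 in tumor 1, 4.97 in tumor 2, 5.68 in tumor 4 and 5.44 in tumor 5. Tumor 1 was apart and tumor 2 lay below the floor. On this probe set the difference of tumor 1 was at least 7.51-fold (log2 difference 2.91, SE 0.26, limma adjusted p = 0.00264). The other probe sets of Kcnc1 were also highest in tumor 1, but by less. The one above the floor in all tumors read 6.43 there. In tumors 2, 4 and 5 it read 5.98, 6.08 and 5.38, so the log2 difference was 0.62. The tested probe set was chosen by its mean, 6.10 beside 5.97, and only its value in tumor 1 put it ahead. The result for Kcnc1 thus rests on a probe set chosen through the tumor being tested.

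Kcnd2, which encodes a pore subunit of the A-type current known from cerebellar granule cells, read 8.63, 7.47, 6.997 and 6.23 in tumors 1, 2, 4 and 5. Tumor 1 was the highest and tumor 5 the lowest, with a range of 5.27-fold. Because the other 3 were themselves spread out, the difference of 1.73 in tumor 1 (SE 0.40) missed the threshold, with a limma adjusted p = 0.0891. Tumors 1 and 5 kept these places on its other 2 probe sets, with 6.53 in tumor 1 and 4.52 in tumor 5 on one and 6.64 and 4.32 on the other. With tumor 2, 4 or 5 left out Kcnd2 passed in tumor 1, with limma adjusted p-values of 0.00821, 0.000859 and 0.000662, where 1.93%, 1.72% and 1.93% of all genes passed higher. With tumor 1 left out it passed as lower in tumor 5 than in tumors 2 and 4, by -1.01 (limma adjusted p = 0.0238), where 0.365% of all genes passed lower and 0.188% higher. Without tumor 1, 0 members passed in tumors 2 and 4, where 0.212% and 0.0471% of all genes passed higher and 0.13% and 0.0353% lower. Its relative Kcnd3 had the narrowest range of this family among genes above the floor throughout, at 7.43, 6.86, 6.73 and 6.69, and its difference of 0.67 in tumor 1 did not pass (adjusted p = 0.195).

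Kcna1 and Kcna2, which encode axonal potassium channel subunits, fell below the filter on the mean and were therefore not in the main test. Kcna1 read 7.25, 5.01, 5.30 and 4.47 in tumors 1, 2, 4 and 5, so that tumor 1 was high and tumors 2 and 5 lay below the floor. The difference of tumor 1 with values raised to the floor was at least 4.19-fold. Tested with no filter on the mean, 6 members passed in tumor 1, Kcna1 and Kcna2 among them but none of the 6 above, where 0.728% of all genes passed higher. Kcna2 read 6.21 in tumor 1 and lay below the floor in the other 3, so their spread in that test was set by the floor. For Kcna1 tumors 2 and 5 were raised to the floor, so the spread was partly set by it.

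Modifier subunits, which form no channel on their own and alter partner subunits, gave the only member that ranged over 2-fold or more without being highest in tumor 1. Kcng2 read 4.79, 5.87, 6.20 and 5.77 in tumors 1, 2, 4 and 5, so tumor 1 lay below the floor while the other 3 were above it. Its mean was below the filter with all tumors and past it without tumor 1. Kcns2 differed little, at 6.4999, 6.18, 6.53 and 6.77, and Kcng4 lay below the floor throughout. Of the genes for the M-current, which damps repeated firing, Kcnq3 read 6.27, 6.65, 6.33 and 5.95, with overlapping tumors. Kcnq5 read 5.83 in tumor 1 and lay below the floor in the rest. Of the 4 genes of the ether-a-go-go family, Kcnh2 alone was above the floor, at 5.49, 5.59, 5.88 and 5.87.

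Of the 8 inward rectifiers, 4 lay above the floor in every tumor. Kcnj10, the glial potassium channel of astrocytes and oligodendrocytes, read 8.57, 8.82, 8.19 and 8.45 in tumors 1, 2, 4 and 5, and Kcnj16, which assembles with it, 6.67, 6.56, 5.87 and 6.61. The tumors lay close together for Kcnj10, and tumor 4 was the low one for Kcnj16, by -0.74 (limma adjusted p = 1.00). Kcnj3, a subunit of the channel opened by inhibitory G protein-coupled receptors, read 7.54, 6.04, 5.73 and 5.88. Tumor 1 lay apart from the other 3 and rose 3.17-fold (log2 difference 1.66, SE 0.23, limma adjusted p = 0.0125). Its usual partners Kcnj6 and Kcnj9 lay below the floor in all tumors. Kcnj11, the pore of the ATP-sensitive channel, had the narrowest range, at 7.20, 7.05, 7.14 and 6.92.

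The tandem-pore leak channels set the resting potential. Kcnk1 read 10.10, 8.50, 8.91 and 8.999 in tumors 1, 2, 4 and 5, and its other probe set 9.02, 7.38, 7.63 and 7.91. Tumor 1 was the high one on both and rose 2.45-fold on the brighter probe set (log2 difference 1.29, SE 0.21, limma adjusted p = 0.0261). Kcnk2, a mechanosensitive leak channel, read 7.52, 6.60, 6.58 and 7.09. Tumors 1 and 5 were the higher ones, and the difference of 0.76 in tumor 1 did not pass (limma adjusted p = 0.252). Kcnk6, Kcnk13 and Kcnk15 lay below the floor throughout.

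Among calcium- and sodium-activated potassium channels, an auxiliary subunit was measured in every tumor while the pore it modifies mostly was not. Kcnmb4, a neuronal subunit of the large-conductance channel, read 7.96, 7.63, 7.62 and 7.35 in tumors 1, 2, 4 and 5. Kcnma1, the pore of that channel, had 4 probe sets, and the brightest lay above the floor in tumor 4 alone, at 5.53. Kcnn2, a small-conductance channel, read 6.02, 5.63, 5.69 and 6.17. Neither Kcnmb4 nor Kcnn2 passed in any tumor.

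Auxiliary subunits of voltage-gated potassium channels included members above the floor in tumor 1 alone and an even one. Kcnab1, which binds the cytoplasmic face of Shaker channels, read 6.53 in tumor 1 and 4.10, 4.38 and 3.54 in tumors 2, 4 and 5, all below the floor, a difference of at least 2.66-fold. Kcnip4, which binds Shal channels such as those of Kcnd2, read 5.66, 3.09, 4.17 and 2.51, and was above the floor in tumor 1 alone on all of its 3 probe sets. Kcnip3, a calcium-binding protein of the same family that also acts as a transcriptional repressor, read 7.84, 7.74, 7.99 and 8.001 and did not set any tumor apart.

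**Figure D2:**
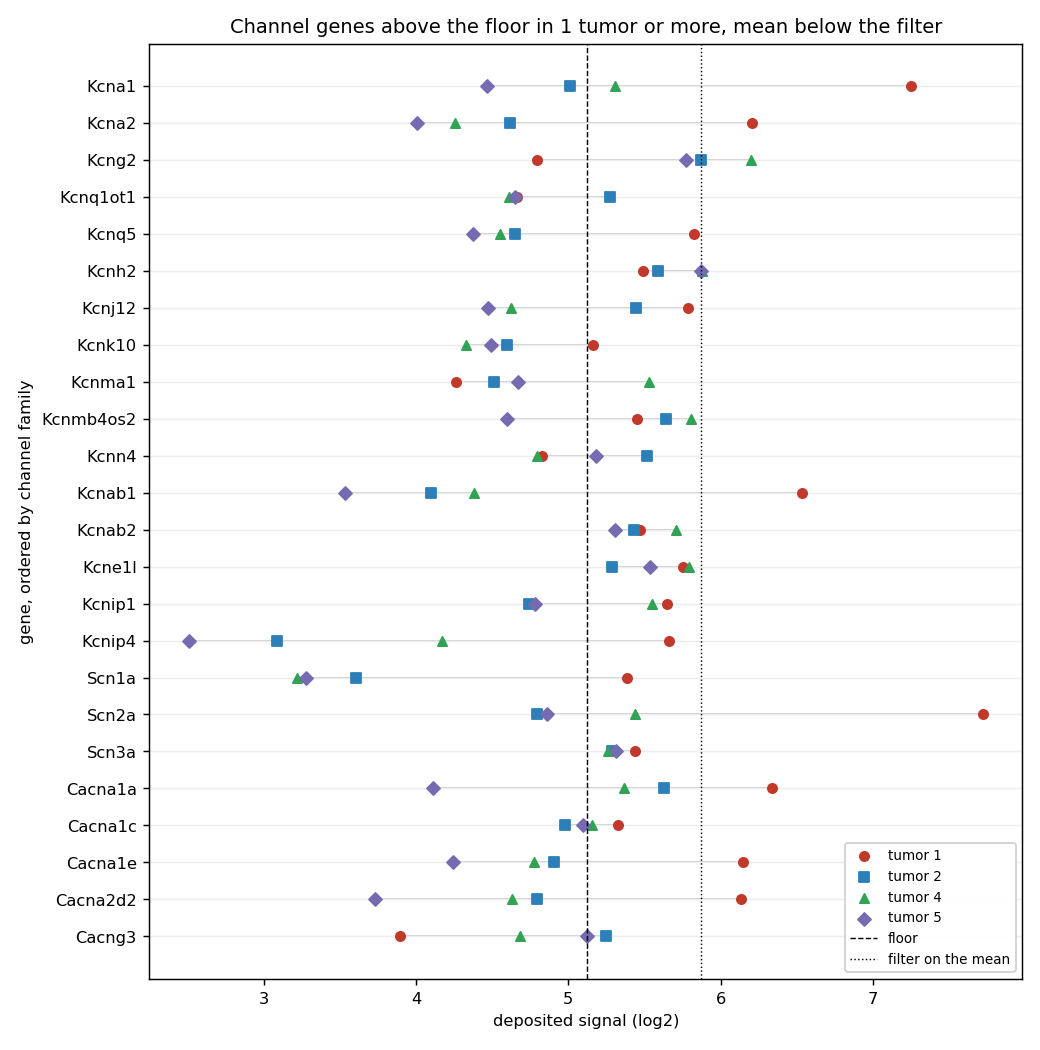
Deposited log2 signal (x axis) of the 24 members above the floor in at least 1 tumor whose mean stayed below the filter (y axis), with 1 point per tumor and a grey line from the lowest to the highest. Tumor 1 lies at the right end for most genes, with Scn2a at 7.72 and Kcna1 at 7.25, and at or near the left end for Kcng2, Kcnma1 and Cacng3.

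Sodium channel genes differed between alpha and beta subunits in what could be tested. Scn2a, a main alpha subunit of unmyelinated axons, read 7.72, 4.79, 5.44 and 4.86 in tumors 1, 2, 4 and 5, with tumors 2 and 5 below the floor. Tumor 1 was higher by at least 5.63-fold, but with a mean of 5.70 the gene stayed under the filter. With the filter recomputed without tumor 2 or without tumor 5 it entered the test and passed, where 1.93% of all genes passed higher in either setting. Its entry there depended on tumor 1, since the other 3 tumors average 5.03, and each of these fits rests on the spread of 2 tumors. Its other 2 probe sets read 5.85 and 5.63 in tumor 1 and lay below the floor in the rest. Scn8a, the alpha subunit of nodes and initial segments, read 7.06, 6.86, 6.16 and 6.17, with tumors 1 and 2 above tumors 4 and 5, and passed in no tumor. Scn3a, known from developing neurons, hardly moved, at 5.44, 5.29, 5.26 and 5.31, and Scn1a was above the floor in tumor 1 alone, at 5.38.

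Scn2b, an adhesion-like beta subunit that brings sodium channels to the surface, read 7.86, 6.29, 6.16 and 6.58 in tumors 1, 2, 4 and 5. Tumor 1 lay above the other 3 and rose 2.86-fold (log2 difference 1.52, SE 0.23, limma adjusted p = 0.0184). Scn3b read 6.66, 6.36, 6.55 and 6.87 without a tumor apart, and Scn4b lay below the floor throughout.

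The calcium channel pore subunits that ranged over 2-fold or more, Cacna1a and Cacna1e, were highest in tumor 1. Cacna1a, the P/Q-type pore of Purkinje cells and presynaptic terminals, read 6.34, 5.63, 5.37 and 4.11 in tumors 1, 2, 4 and 5, with tumor 5 below the floor. Cacna1e, the R-type pore, read 6.15 in tumor 1 and lay below the floor in the other 3. Cacna1d, an L-type pore, read 6.19, 6.12, 6.20 and 5.73 and set no tumor apart in limma. The T-type genes Cacna1g and Cacna1h lay below the floor in all tumors.

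The auxiliary beta and alpha2delta calcium channel subunits held 2 of the 6 genes that rose in tumor 1. Cacnb4, a beta subunit whose loss causes ataxia in the lethargic mouse, read 7.76, 5.97, 5.21 and 5.07 in tumors 1, 2, 4 and 5. Tumor 1 was high, tumor 2 came next and tumor 5 lay below the floor. The gene rose in tumor 1 by at least 5.02-fold (log2 difference 2.33, SE 0.34, limma adjusted p = 0.0150). Both of its other probe sets were highest in tumor 1 as well, at 7.21 and 6.11. Cacna2d3, an alpha2delta subunit, read 7.05, 5.53, 5.86 and 5.79 and rose 2.50-fold in tumor 1 (log2 difference 1.32, SE 0.23, limma adjusted p = 0.0336). Cacnb4 and Cacna2d3 reached the filter only with tumor 1 included, so their entry to the test depended on that tumor. Cacna2d2, the alpha2delta subunit of Purkinje cells, read 6.13 in tumor 1 and lay below the floor elsewhere. Cacna2d1, the binding site of gabapentin, was even, at 9.57, 9.75, 9.62 and 9.34.

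The gamma family includes regulators of AMPA-type glutamate receptors. Of its 6 genes, 4 were tested, and none passed in any tumor. Cacng2, the stargazin gene needed for AMPA receptors on granule cells, read 8.63, 8.73, 8.76 and 8.67 in tumors 1, 2, 4 and 5, with an SD of 0.060 (n = 4). Cacng4 read 6.71, 7.34, 7.23 and 7.49 and tumor 1 was the low one (difference -0.64, SE 0.20, limma adjusted p = 0.227). Cacng5 read 7.44, 7.47, 7.89 and 7.83, with tumors 4 and 5 the higher ones.

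**Figure D3:**
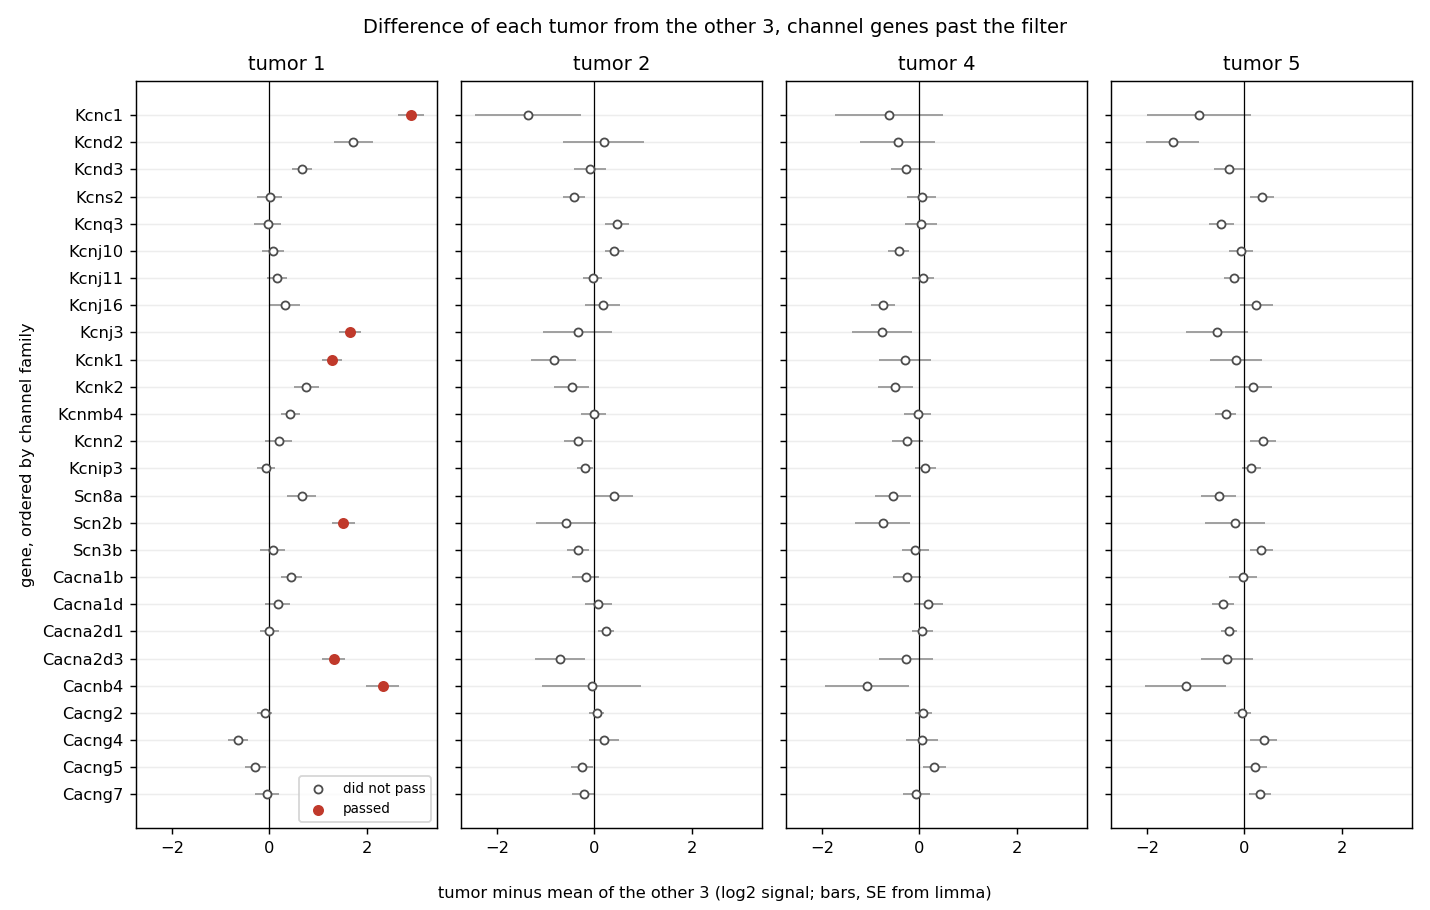
Log2 difference of each tumor from the mean of the other 3 (x axis, 1 panel per tumor) for the 26 tested genes (y axis), with bars for the standard error from limma and red points for genes that passed. Red points occur in the tumor 1 panel alone, from 1.29 for Kcnk1 to 2.91 for Kcnc1.

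Across the whole set, 15 of the 80 members ranged over 2-fold or more between the lowest and the highest tumor, or 18.8%, beside 4.92% of all genes. Tumor 1 was the highest in 14 of these 15, and in 63.6% of all genes with such a range. Among genes past the filter the shares were 26.9% of 26 members and 5.15% of all genes. Tumor 1 differed by 2-fold or more in 7 of the 26 members from each of tumors 2, 4 and 5. Tumors 2 and 5 differed in 1, and tumors 2 and 4 as well as 4 and 5 in 0. Of the 7, Kcnc1, Cacna2d3 and Cacnb4 reached the filter only with tumor 1 included. The member shares past the filter are therefore partly set by that tumor. Over all genes past the filter, tumor 1 differed by as much from tumors 2, 4 and 5 in 2.52%, 2.45% and 3.13%. Tumors 2 and 5 differed in 1.27% of them, tumors 2 and 4 in 0.424% and tumors 4 and 5 in 0.459%. Without tumor 1, the number of members ranging over 2-fold or more fell from 15 to 1. Since 14 of these 15 were highest in tumor 1, this fall is no separate result. The same count over all genes is not given here. In tumor 1 alone, 8 of the 80 members lay above the floor, beside 2.17% of all genes. These are 8 of the 10 members above it in a single tumor, beside 289 of 526 over all genes.

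**Figure D4:**
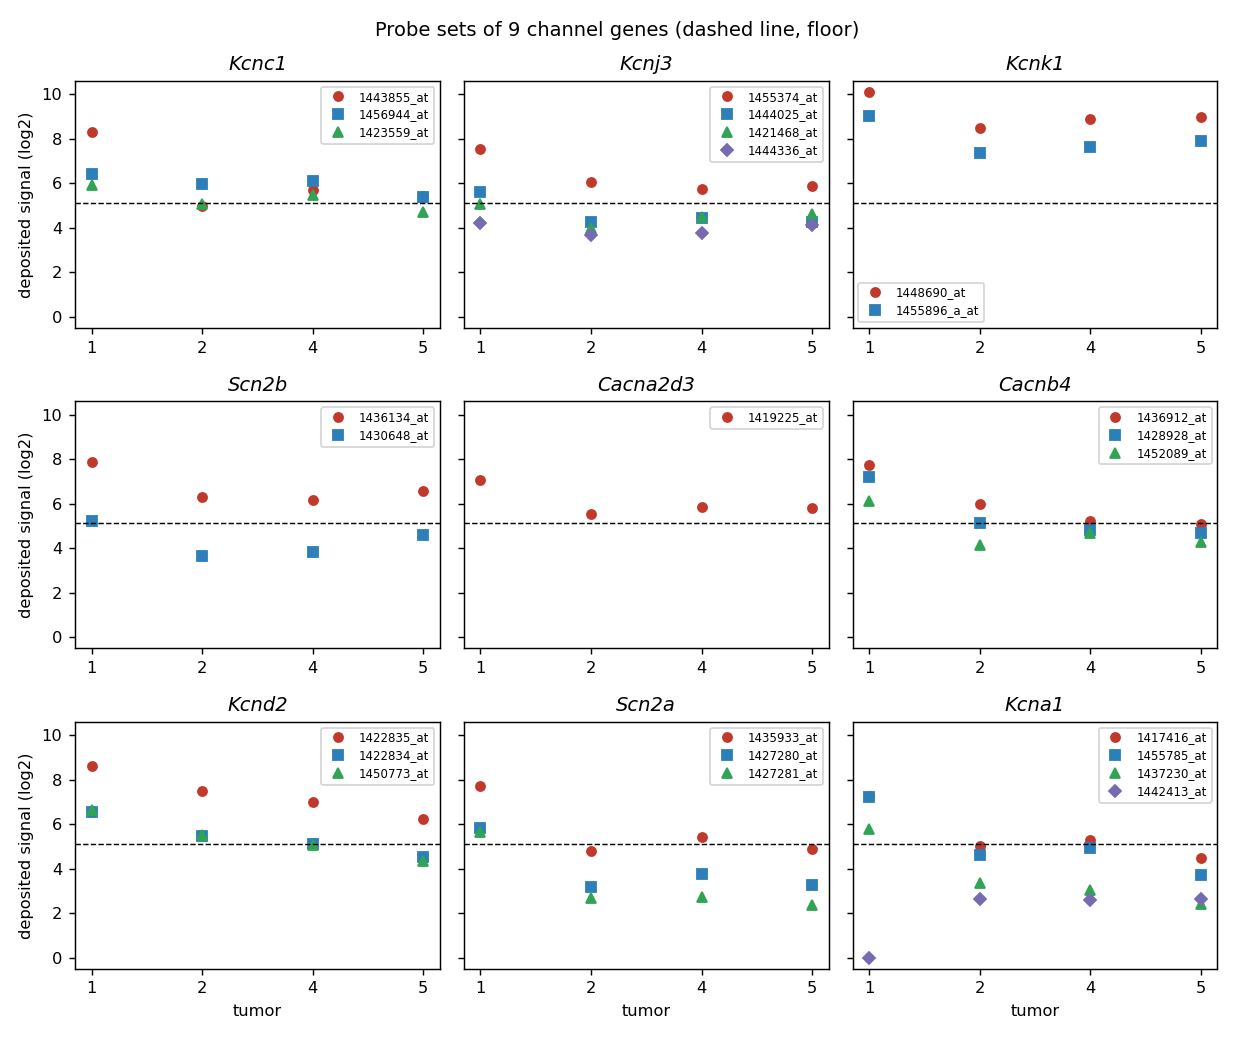
Deposited log2 signal (y axis) on every probe set of the 6 genes that rose in tumor 1 and of Kcnd2, Scn2a and Kcna1, by tumor (x axis). Of the 9 further probe sets of the 6 genes, 7 lie above the floor in tumor 1 and these 7 are highest there.

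Probe sets of a gene did not always rank the tumors alike. Of 9 members with more than 1 probe set above the floor in all tumors, 4 (Cacna1b, Cacng7, Kcnk1 and Scn8a) had the same highest tumor on all of them. The other 5 were Cacna2d1, Cacng2, Cacng4, Kcnip3 and Kcnj16. For Cacng2 1 further probe set read 6.92 in tumor 1 and 6.05, 6.26 and 6.48 in tumors 2, 4 and 5, against the even values above. Of the noncoding RNAs, Kcnmb4os2 read 5.45, 5.64, 5.81 and 4.60 in tumors 1, 2, 4 and 5, and Kcnq1ot1 was above the floor in tumor 2 alone, at 5.27.

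Of 43 further genes of channel function, chosen as partners, anchors and modulators, 30 were on the table and 10 were tested. In tumor 1, 1 passed higher and 0 lower. This was Fgf13, which encodes a cytoplasmic partner of sodium channels, at 9.21, 7.79, 8.10 and 8.31 in tumors 1, 2, 4 and 5 (difference 1.14, limma adjusted p = 0.0429). Dpp6, the membrane partner of Shal channels, read 6.91, 5.62, 6.03 and 5.69 and missed the threshold (difference 1.14, limma adjusted p = 0.0692), and it reached the filter only with tumor 1. Ank3, the anchor of sodium channels at the initial segment, read 10.33, 10.21, 10.40 and 10.43.

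Markers of other cell types moved with tumor 1. In bulk tumor tissue, fewer cells of a type and less RNA per cell cannot be told apart. Of the 8 markers of Purkinje cells and GABAergic neurons on the table, 5 were tested and 5 passed higher in tumor 1, and their summed linear signal was 3895 there and between 286 and 563 in the others, with Gad2 below the floor in all. Of the 5, Calb1, Pcp4 and Gad1 reached the filter only with tumor 1 included. The 10 markers of mature granule and other neurons summed to 5707 in tumor 1 and between 2252 and 2442 elsewhere, with 3 of 4 tested passing higher and Grin2c and Slc17a7 below the floor throughout. Of these 3, Syt1 and Chn2 reached the filter only with tumor 1. The 7 oligodendrocyte markers summed to 5339 in tumor 1 and between 746 and 1615 elsewhere, with 3 of 4 passing higher, of which Cldn11 reached the filter only with tumor 1. These counts of passing markers are therefore partly set by the filter, and the sums do not depend on it. The 8 astrocyte and Bergmann glia markers summed to 5293 in tumor 1 and between 3684 and 4350 elsewhere, with 2 of 8 passing higher, Gjb6 and Gdf10, the second past the filter only with tumor 1. Gfap of this list went the other way, at 6.55 in tumor 1 and 7.52, 7.69 and 7.40 in tumors 2, 4 and 5. Aqp4 and Slc1a2 were not highest in tumor 1. The 6 pericyte and smooth muscle markers summed to 1046.5 in tumor 1 and between 527 and 634 elsewhere, with 0 of 2 passing. The 5 markers of oligodendrocyte precursors had their lowest sum in tumor 1, at 2525 beside 3166 to 3502, with 0 of 4 passing. Among them Cspg4 was lowest in tumor 5. The sum of the 8 microglia and macrophage markers was also lowest in tumor 1, at 2386 beside 3127 to 4442, and 1 of 8, Ptprc, passed lower. Cx3cr1, Csf1r and Ly86 of this list were not lowest in tumor 1. The sums of granule cell progenitor and of dividing cell markers were lowest in tumor 1, at 11109 and 6062.5, beside 12631 to 14141.5 and 8368 to 8614 elsewhere. The part of these cells in the channel differences was not tested. Kcnj13 and Kcne2, channel genes of choroid plexus epithelium that stand outside the set, were above the floor in tumor 5 alone, at 6.17 and 5.28. Of the other markers of this epithelium, Kl and Folr1 were above it in tumor 5 alone, and Ttr in tumors 4 and 5, at 5.70 and 12.16. Clic6 was above it in all tumors and highest in tumor 1, at 9.15 beside 8.73 in tumor 5. Aqp1 lay below the floor throughout.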

How the data were processed

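The deposited values are log2 signals, 1 array per tumor. The submitters' processing notes name MAS5, with neither version nor scaling target stated in the sources used here. MAS5 summarises and scales each array on its own and subtracts a local background, so low signals are noisy on the log scale and signal-dependent differences between arrays can remain. The table held 29304 probe sets without detection calls, and 61 controls were removed. The beta-actin and Gapdh controls read lower in tumors 1 and 2 than in tumors 4 and 5. On a Gapdh set they read 11.14 and 11.06 against 11.57 and 11.47. Members and lists were chosen with earlier results of these data known. Values below the floor were raised to it for differences and tests, which makes a difference against floored tumors a lower bound. Each gene was represented by its brightest probe set on average. Tests used lmFit and eBayes with an intensity trend in limma 3.58.1 and R 4.3.3, and were tested on simulated data. Printed by rule were members that passed, and per family the 2 with the widest and the 1 with the narrowest range. Others were added after their values were seen, such as Kcna1, Kcna2, Kcnj10, Kcnma1, Scn1a, Dpp6 and Ank3. For some of these genes, values below the floor were given only as below it. The 4 fits share tumors. Replicates are separate tumors, and the labels name no batch.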

Additional observations from a re-analysis of the deposited data

Results flagged for a closer look

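Among the members printed with all 4 values, 2 had a tumor far from the other 3, with a gap of 0.836 of the whole range for Cacna1d and 0.863 for Kcnj16. Chance gives such a gap in about 1 of 20 groups, and more than 20 members were looked at. A few such gaps can therefore arise by chance alone, and the share over all genes is not given here. Cacna1d was lowest in tumor 5, at 5.73, beside values from 6.12 to 6.20. Kcnj16 was lowest in tumor 4, at 5.87, beside values from 6.56 to 6.67, and its other probe set was also lowest in tumor 4, at 5.60, beside 6.06, 6.26 and 6.16 in tumors 1, 2 and 5.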

How the results depend on the processing

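No paired analysis was possible because the labels give a single group. The count of 6 members passing in tumor 1 became 1, Kcnk1, with a 75th percentile filter, where 7 members were tested, and lay between 7 and 8 with another tumor left out. With no mean filter 6 members passed as well, but others: Kcna1, Kcna2, Kcnab1, Scn2a, Cacna1e and Cacna2d2, in 0.728% of all genes. For Kcna2, Kcnab1, Cacna1e and Cacna2d2 the other 3 tumors all sat at the floor, so their spread there is set by the floor. For Kcna1 and Scn2a tumors 2 and 5 sat at it, so the spread is partly set by it. In that setting the limma adjusted p was 0.0742 for Kcnc1, 0.0976 for Kcnj3, 0.143 for Cacna2d3, 0.206 for Scn2b, 0.266 for Cacnb4 and 0.2702 for Kcnk1. Scn2b (0.0541) and Kcnk1 (0.0818) also missed the threshold under a 50th percentile floor, and Cacna2d3 with quantile normalization (0.0722) and median centring (0.0535). The differences of Kcnc1, Kcnd2, Kcnd3, Kcnj3, Kcnk1, Kcnk2, Scn2b, Cacnb4, Cacna2d3 and Cacng4 in tumor 1, of Kcnj16 in tumor 4 and of Kcnd2 in tumor 5 kept their sign in every setting run for them; those of other genes were not recomputed. Between 0 and 1 members passed in tumor 5 and 0 in tumors 2 and 4 with a tumor left out. The median difference in tumor 1, 0.26, became 0 with no filter, 0.0025 with the 75th percentile filter, 0.32 without _x_at and _s_at probe sets, 0.19 with the mean of a gene's probe sets, 0.19 with quantile normalization and 0.15 with median centring, which moved the median of all genes from -0.036 to -0.14. With a tumor left out it lay between 0.24 and 0.43. In tumor 4 it was -0.25, and became 0 with no filter, 0.063 with the 75th percentile filter and between -0.40 and 0.034 with a tumor left out. The 28 members above the floor in every tumor became 49 with the floor at the 25th percentile and 7 with the 75th percentile filter. The 15 that ranged over 2-fold or more became 24 and 9 with the floor at the 25th and 50th percentile, 1 with the 75th percentile filter, and between 1 and 15 with a tumor left out. Both counts are taken over all 80 members with no filter on the mean, and under the 75th percentile filter over the 7 members past it. The same counts over all genes under these settings are not given here. These shifts therefore cannot be read as particular to the members. The 110 genes passing in tumor 1 became 29 with the 75th percentile filter, 57 with the floor at the 50th percentile and between 177 and 208 with a tumor left out. Other causes were not tested.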
